A study of Mus musculus with 8 samples.

Results

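The interferon-induced transmembrane genes *Ifitm1*, *Ifitm2* and *Ifitm3* were examined in single-cell RNA libraries of isolated mouse islets, in 6 cell classes and 4 conditions. These 3 of the 30406 genes listed for all 8 libraries were chosen by symbol. They were selected on a readout of the same libraries, namely that *Ifitm2* was lower with cytokines alone than with cytokines and a nitric oxide synthase (NOS) inhibitor, and more so in non-β endocrine cells than in β-cells. That contrast is therefore only described here, without a test. Islets of male C57BL6/J mice aged 12 to 16 weeks were cultured for 18 h, as intact islets, and dispersed with trypsin and EDTA afterwards. The groups were untreated islets, islets with 10 U/mL human IL-1β and 150 U/mL mouse IFN-γ (cytokines), islets with the same cytokines and 2 mM N-monomethyl-L-arginine (NMMA), which inhibits NOS, and islets with 2 mM NMMA alone. Each of 2 replicates was a pool of islets from 10 mice divided over the 4 conditions, so a replicate is a pool and not a mouse, and isolation and culture were common to all groups.

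IFITM proteins are small membrane proteins that restrict the entry of enveloped viruses, IFITM3 mainly in endosomes and lysosomes and IFITM1 mainly at the cell surface. Their genes are typical targets of interferons. Type I and type II interferons act through JAK kinases and STAT factors on interferon-stimulated response elements and gamma-activated sites in such genes. In islets, IL-1β and IFN-γ together induce *Nos2*, the gene of inducible NOS, whose product nitric oxide limits mitochondrial oxidation.

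All 3 genes lie on mouse chromosome 7 (build GRCm38, GENCODE M21 annotation). *Ifitm2* (ENSMUSG00000060591) spans 140954837 to 140955987 on the minus strand with 2 exons, *Ifitm1* (ENSMUSG00000025491) spans 140967221 to 140969825 on the plus strand with up to 3 exons in 3 transcripts, and *Ifitm3* (ENSMUSG00000025492) spans 141009586 to 141010770 on the minus strand with 2 exons. The distance from *Ifitm2* to *Ifitm1* is 11233 bases and from *Ifitm1* to *Ifitm3* 39760 bases, with *Ifitm5* and *Ifitm6* on either side. RefSeq promoter windows (GRCm38.p6), which span 1 RefSeq start of each gene (140955912 to 140956211 for *Ifitm2* and 141010695 to 141010994 for *Ifitm3*), were searched on both strands for GAAA, any 2 bases and GAAA, the core of an interferon-stimulated response element, and for TTCNNNGAA, the core of a gamma-activated site. The first is in 3.44% of all 32851 windows and the second in 8.30%. The *Ifitm2* window held 1 copy of the first, starting at position -46, and the *Ifitm3* window held 2, at positions 3 and 20, with 1 TTCNNNGAA at position 14 that overlaps the second of them by 3 bases. At least 2 copies of the first are in 0.225% of all windows, and both motifs are in 0.454%. The *Ifitm1* window (140967826 to 140968125) held neither string of letters. It spans the starts of 2 of the 3 annotated *Ifitm1* transcripts, at 140968028 and 140968040, and not that of the longest, at 140967221, which was not searched. The matches are shown because these genes responded to IFN-γ with IL-1β below, with the motif letters in capitals. The *Ifitm2* stretch, on the minus strand, lies directly before the annotated gene (chr7:140955988-140956017), and the *Ifitm3* stretch, on the minus strand, lies at the start of its first exon (chr7:141010714-141010743).
Ifitm2: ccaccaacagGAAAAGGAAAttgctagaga
Ifitm3: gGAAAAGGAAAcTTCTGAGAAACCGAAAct

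The 3 transcripts are alike in parts, which bears on how reads are assigned. Of stretches of 50 bases, 20 are identical between *Ifitm2* and *Ifitm3* and 15 between *Ifitm1* and *Ifitm3*, while none are shared by *Ifitm1* and *Ifitm2*. The shared 50-base stretches lie at least 328 bases from a 3′ end. At 25 bases, *Ifitm2* and *Ifitm3* share 50 stretches, the last of them 15 bases from the 3′ end of *Ifitm2*. A read within a shared stretch cannot be assigned to 1 of the genes, and how the authors' counting treated such reads is not given in the sources used here.

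The libraries hold between 26549922 and 50731370 unique molecular identifiers (UMIs), each a count of 1 captured RNA molecule. Since 3′-tagged molecules are counted, the number of UMIs does not scale with transcript length. Of 17426 barcodes, 10876 were kept, with a median of 18911, 23701, 24136 and 23736 UMIs in replicate 1 (untreated, cytokines, cytokines and NMMA, NMMA) and of 3983, 15904, 6246 and 14150 in replicate 2. Clusters named by fixed markers gave 6351 β-, 650 α- and 331 δ-cells, 347 macrophages, 283 endothelial and 215 mesenchymal cells. Insulin-led cells (271) were taken out when the α- and δ-cell clusters were clustered again, and are in none of these classes. They numbered 72 and 61 untreated (replicates 1 and 2) and 12 and 124 with NMMA. With cytokines they numbered 1 and 1, and with cytokines and NMMA 0 and 0. The effect of this uneven removal on comparisons with untreated cells was not tested. The classes held their defining markers, with *Gcg* at 150375 CPM (UMI counts scaled to a common total, as below) in α-cells, *Sst* at 54356 in δ-cells, *Ins2* at 282596 in β-cells, *C1qa* at 3354 in macrophages, *Pecam1* at 888 in endothelial and *Col1a1* at 1166 in mesenchymal cells. Of the markers described here, *Pdx1* was higher in δ-cells than in β-cells, and *Rgs5* was higher in endothelial than in mesenchymal cells. Endothelial cells with cytokines formed a cluster of their own, led among others by *Ifitm3* and *Ifitm1*, so the clustering was repeated without the *Ifitm* genes, and 98.2% of cells kept their class. Macrophages were divided likewise, with a cluster that held 23 of 34 and 22 of 39 cells with cytokines and 22 of 29 and 37 of 46 with cytokines and NMMA, but 0 of 39 and 1 of 73 untreated cells, so values with and without cytokines come largely from different clusters in both classes. The cytokine library of replicate 1 held 9 δ-cells and was left out, so 1 library of 12 cells stands for cytokines in δ-cells. Any 2 libraries share at most 5 cell barcodes, of which at most 2 were kept in both.

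UMIs of the cells of a class were summed per library and scaled to CPM with TMM factors, and n = 2 libraries for each mean ± SD. Without cytokines, *Ifitm3* was highest in mesenchymal and endothelial cells, with 1918 ± 11.2 and 1871 ± 314 CPM, which overlapped. Macrophages followed with 342 ± 249, α-cells with 9.26 ± 5.57, δ-cells with 2.06 ± 1.41 and β-cells with 0.508 ± 0.0505 CPM, and each of these ranges lay below the one before. *Ifitm2* was highest in endothelial cells (992 ± 24.3 CPM), then in mesenchymal cells (729 ± 162), macrophages (151 ± 37.2) and α-cells (125 ± 18.4), of which the last pair overlapped. It was at 105 ± 9.42 CPM in δ-cells and 23.0 ± 4.52 in β-cells. *Ifitm1* was at 59.0 ± 55.6 CPM in endothelial and 58.3 ± 72.2 in mesenchymal cells and had no UMI in untreated α-cells, δ-cells or macrophages, where 3 counts would be 0.904, 1.87 and 2.75 CPM. In β-cells it had 2 UMIs in both libraries together. With cytokines and NMMA the order of *Ifitm2* was endothelial (2160 ± 132 CPM), mesenchymal (1247 ± 465), α- (837 ± 193) and δ-cells (650 ± 35.5), macrophages (321 ± 95.7) and β-cells (63.0 ± 11.6), where mesenchymal and α-cells overlapped. α- and δ-cells, which were not above macrophages without treatment, thus stood above them.

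**Figure D1:**
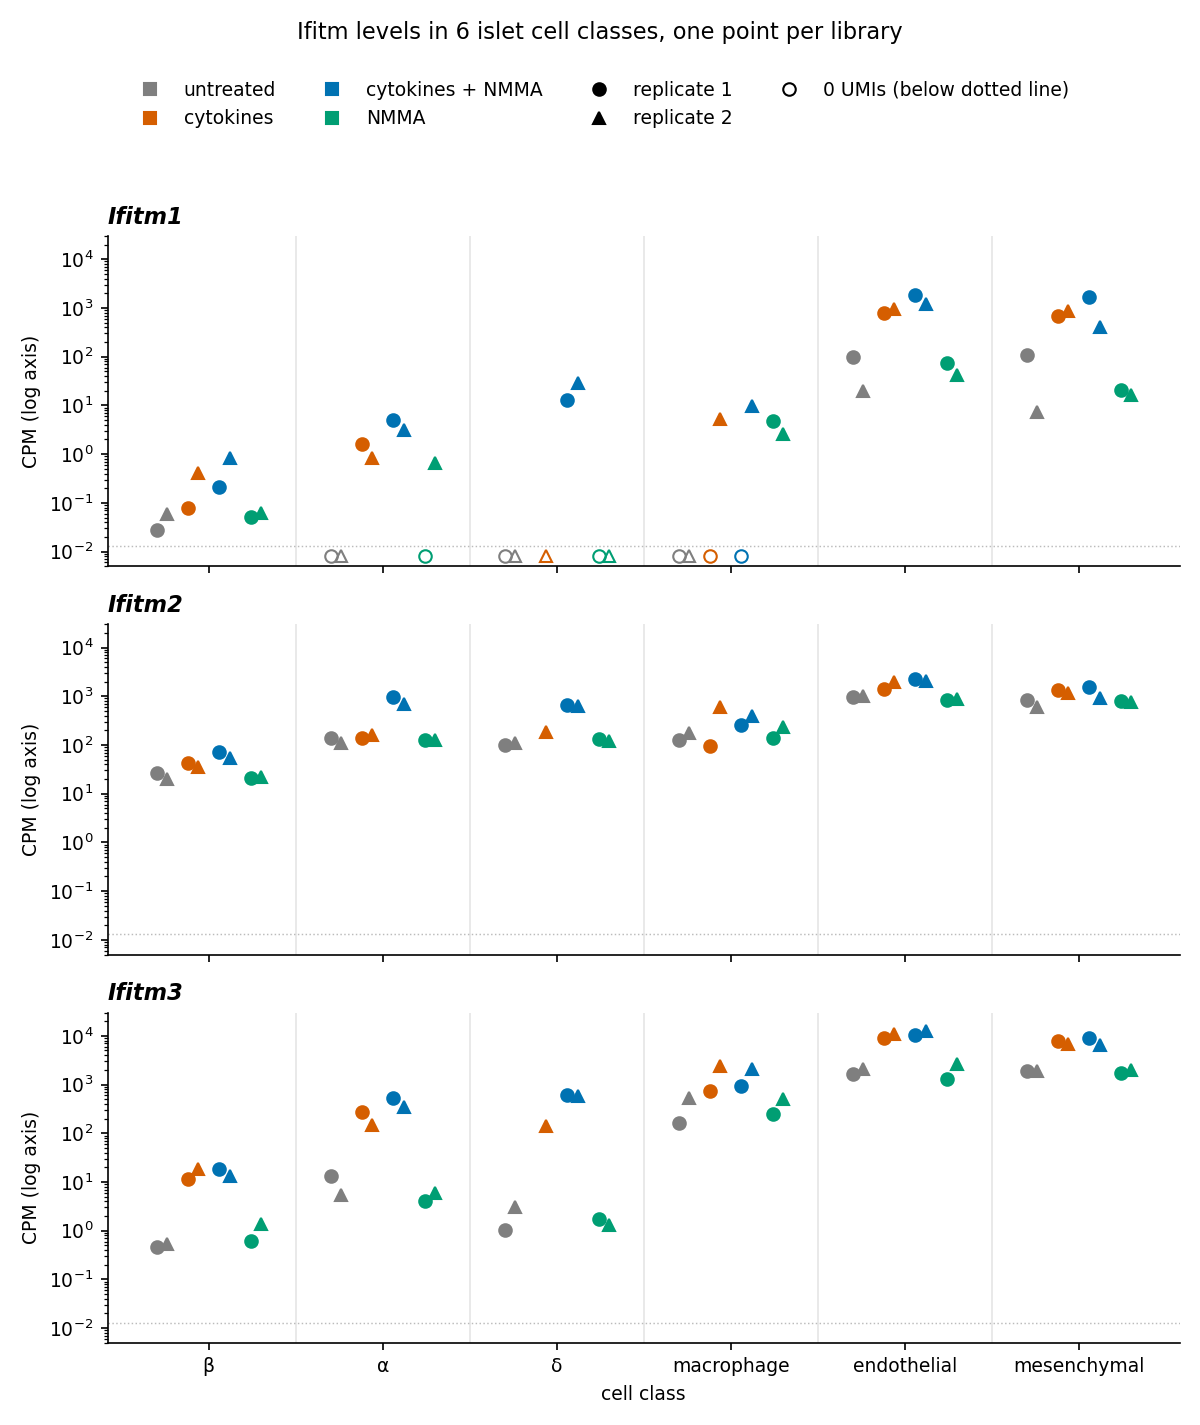
Each point is 1 library's CPM (log axis) of an *Ifitm* gene in a cell class, with color for the condition and shape for the replicate; open points below the dotted line had no UMI. *Ifitm3* with cytokines lies between 11.7 and 18.1 CPM in β-cells and between 9035 and 10831 in endothelial cells, and *Ifitm1* with cytokines is between 684 and 972 CPM in endothelial and mesenchymal cells.

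The make-up of the family differed between endocrine and other cells. Of the UMIs of the 3 genes in untreated cells, *Ifitm2* held 98.1 and 97.0% in β-cells (replicates 1 and 2), 91.3 and 95.5% in α-cells and 98.9 and 97.3% in δ-cells. *Ifitm3* held 57.1 and 74.5% in macrophages, 60.6 and 67.0% in endothelial and 66.7 and 75.6% in mesenchymal cells. With cytokines the share of *Ifitm3* was 21.4 and 33.4% in β-cells, 65.3 and 47.0% in α-cells and 44.1% in the δ-cell library. With cytokines and NMMA it was 20.9 and 19.4%, 34.7 and 33.0%, and 46.5 and 46.9%. Thus *Ifitm3* was at most 8.72% of the family's UMIs in every untreated endocrine library and at least 19.4% in every endocrine library with cytokines. The share of *Ifitm1* was 3.61 and 0.631% in untreated and 12.8 and 7.81% in endothelial cells with cytokines and NMMA.

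**Figure D2:**
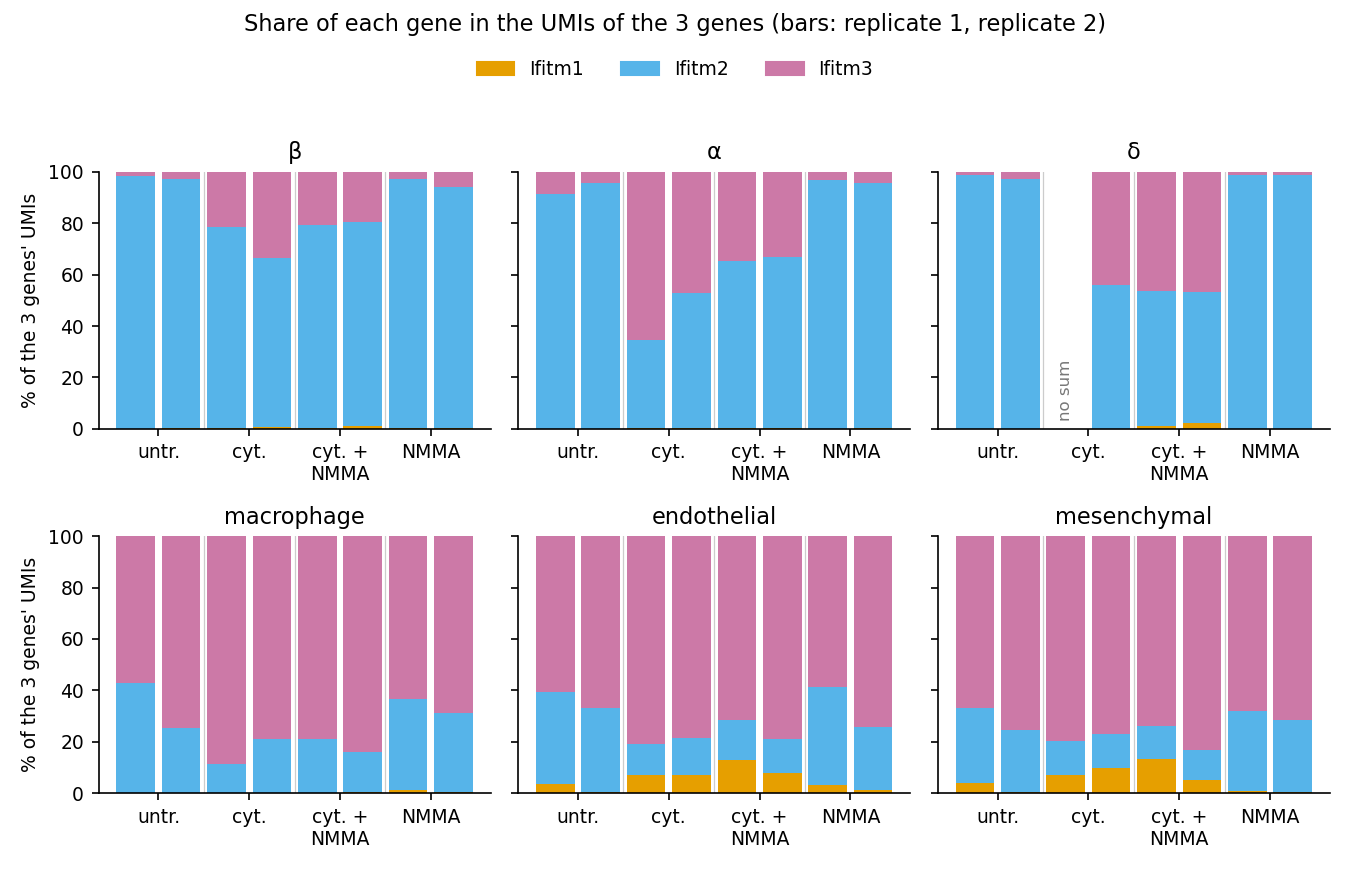
Each bar is 1 library, divided by the percent of the UMIs of the 3 genes that each gene holds, for 6 cell classes and 4 conditions; the missing bar is the δ-cell library with under 10 cells. *Ifitm2* fills 91.3 to 98.9% of the untreated endocrine bars, and *Ifitm3* fills at least 57.1% of each bar of the 3 other classes.

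Cytokine-treated and untreated islets were compared to ask how islet cells respond to cytokines at 18 h, with and without nitric oxide. The comparisons with and without NMMA share the untreated libraries, and in endocrine cells they also share libraries with the contrast by which the genes were selected. The p-values of *Ifitm2* in endocrine cells are therefore not independent of the selection. After the filter on low counts *Ifitm2* and *Ifitm3* were tested in all 6 classes, and *Ifitm1* in δ-, endothelial and mesenchymal cells. Genes are called changed at an adjusted p of 0.05 (edgeR quasi-likelihood test, Benjamini-Hochberg over all genes tested in the class). *Ifitm3* was called higher in β-, endothelial and mesenchymal cells in both comparisons, and in macrophages only with the replicate as a block. In α- and δ-cells it passed the filter on low counts only through the groups with cytokines, where it is high, and these classes are not counted here.

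In β-cells, *Ifitm3* was at 0.473 and 0.544 CPM untreated, 11.7 and 18.1 with cytokines, and 18.8 and 13.4 with cytokines and NMMA. Every library with cytokines was far above both untreated libraries, and the groups with and without NMMA overlapped. The fitted change was 4.88 ± 0.39 (log2, SE) with cytokines (adjusted p = 4.13e-05) and 5.0 ± 0.39 with cytokines and NMMA (adjusted p = 4.96e-05, edgeR). The level stayed low: the untreated sums rest on 17 and 9 UMIs in 1664 and 603 cells. *Ifitm2* was at 26.2 and 19.8 CPM untreated, 43.0 and 35.7 with cytokines, and 71.2 and 54.8 with cytokines and NMMA, with no overlap between the 3 groups. It rose by 0.77 ± 0.18 on the log2 scale with cytokines (adjusted p = 0.00744) and by 1.45 ± 0.18 with cytokines and NMMA (adjusted p = 0.000531, edgeR). Within replicates this was 1.64- and 1.81-fold, and 2.72- and 2.77-fold. So 2 of the 2 tested members were called higher in both comparisons, where 23.7% of 12779 genes were higher with cytokines and 12.9% with cytokines and NMMA. The call of *Ifitm2* with cytokines is lost when cytokine replicate 1 (adjusted p = 0.0556) or untreated replicate 2 (adjusted p = 0.0539) is left out. *Ifitm1* had 8 UMIs with cytokines and 14 with cytokines and NMMA against 2 untreated, ratios of 5.13 (95% counting interval 1.02 to 49.6) and 11.9 (2.73 to 108), and was not tested.

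In α-cells, the glucagon-producing cells, *Ifitm3* was at 13.2 and 5.32 CPM untreated, 269 and 146 with cytokines, and 521 and 347 with cytokines and NMMA. These 3 ranges did not overlap. It rose by 4.5 ± 0.46 on the log2 scale with cytokines (adjusted p = 0.000162) and by 5.59 ± 0.46 with cytokines and NMMA (adjusted p = 4.80e-05, edgeR). With 19 and 10 UMIs untreated and 4 and 9 with NMMA, it passed the filter on low counts only through the groups where it is high. With all genes tested and no such filter, the changes were 4.47 and 5.59 and both were called. *Ifitm2* was at 138 and 112 CPM untreated, 141 and 163 with cytokines, and 974 and 701 with cytokines and NMMA. The change with cytokines, 0.29 ± 0.22 (adjusted p = 0.376), was not called, and that with cytokines and NMMA was 2.74 ± 0.22 (adjusted p = 1.60e-07, edgeR), 7.04- and 6.24-fold within the replicates. The selection of *Ifitm2* used these same libraries with cytokines and NMMA, so the latter p is not independent support. With total UMIs in place of TMM factors, all log2 changes with cytokines in α-cells move by -0.49, and that of *Ifitm2* turns to -0.20 (adjusted p = 0.527). In the other classes this shift is between -0.22 and 0.10 with cytokines, with or without NMMA, and turns the direction of no member there. Of 9802 genes, 13.4% were called higher with cytokines and 6.13% with cytokines and NMMA, and no count of members is read against these shares. *Ifitm1* had no UMI in 97 and 94 untreated α-cells and 15 UMIs with cytokines and NMMA, at least 4.42-fold more when 3 counts over the untreated libraries are taken as the floor.

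In δ-cells, which make somatostatin, *Ifitm3* was at 1.06 and 3.06 CPM untreated, 142 in the cytokine library, and 597 and 578 with cytokines and NMMA. The untreated libraries hold 3 *Ifitm3* UMIs together, so the ratios to them are 76.0 (95% counting interval 23.6 to 389) with cytokines and 315 (107 to 1528) with cytokines and NMMA. With 1 and 2 UMIs untreated and 1 and 1 with NMMA, *Ifitm3* passed the filter on low counts only through the groups where it is high, and the cytokine group is 1 library of 12 cells, so these values are a description. *Ifitm2* was at 98.3 and 112 CPM untreated, 180 with cytokines, and 675 and 625 with cytokines and NMMA. It rose by 2.63 ± 0.22 on the log2 scale with cytokines and NMMA (adjusted p = 6.30e-09, edgeR). As in α-cells, the selection of *Ifitm2* used these libraries, so that p is not independent support. The value with cytokines, from 1 library, was 0.78 ± 0.28. *Ifitm1* had 12 and 19 UMIs (12.8 and 29.4 CPM) with cytokines and NMMA and none in the 5 other δ-cell sums. That is at least 10.4-fold above untreated (adjusted p = 0.00156, edgeR), but it passed the same filter only through the group where it is high, and DESeq2 did not call it (adjusted p = 1). Of 9484 genes, 4.63% were called higher with cytokines and 6.42% with cytokines and NMMA, and no count of members is read against these shares.

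**Figure D3:**
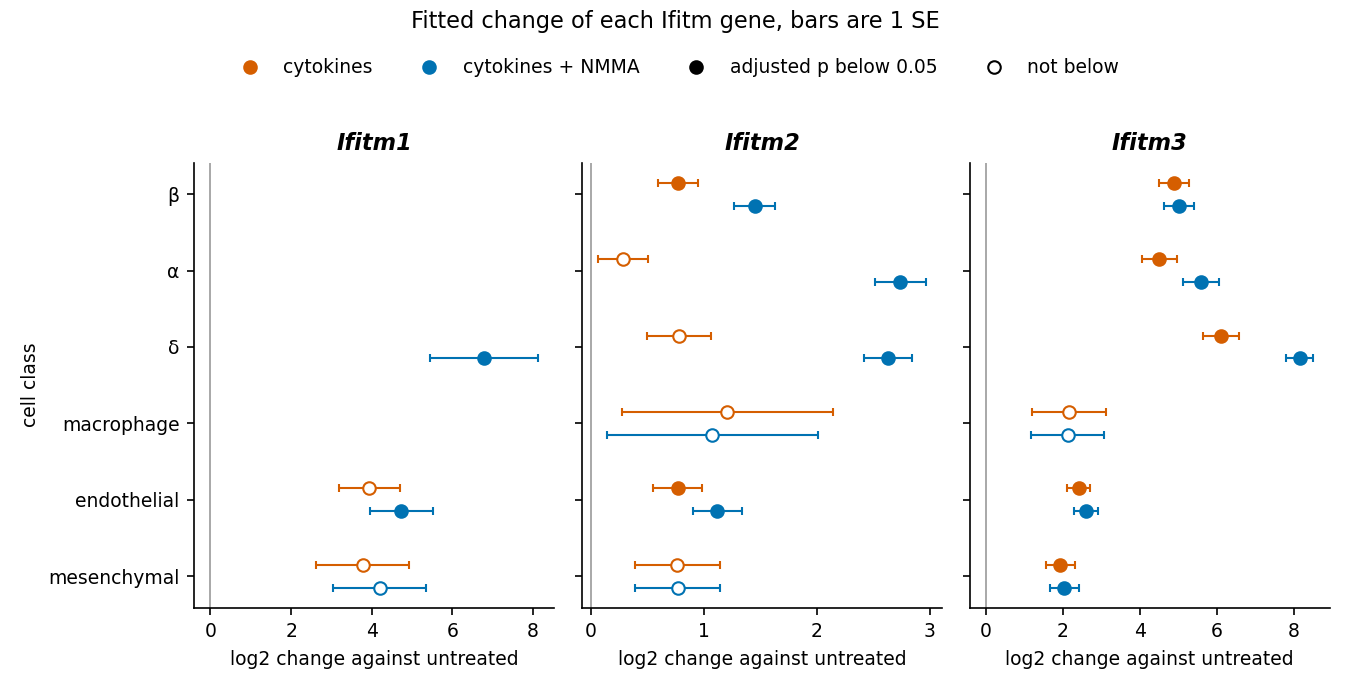
Fitted log2 change against untreated (x axis) with 1 SE for each gene and cell class, for cytokines and for cytokines with NMMA; filled points have an adjusted p below 0.05, and those of *Ifitm3* in α- and δ-cells and *Ifitm1* in δ-cells passed the filter on low counts only where they are high. *Ifitm2* in α-cells moves from 0.29 with cytokines to 2.74 with cytokines and NMMA, while *Ifitm3* in endothelial cells is at 2.41 and 2.60.

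In endothelial cells, *Ifitm3* was at 1649 and 2093 CPM untreated, 9035 and 10831 with cytokines, and 10200 and 12427 with cytokines and NMMA. All 4 libraries with cytokines were far above either untreated one, by 5.17- to 6.18-fold within replicates. It rose by 2.41 ± 0.30 on the log2 scale (adjusted p = 0.00029) and by 2.60 ± 0.30 with NMMA added (adjusted p = 0.000151, edgeR). *Ifitm2* was at 975 and 1009 CPM untreated, 1384 and 1993 with cytokines, and 2253 and 2066 with cytokines and NMMA, a rise of 0.77 ± 0.22 (adjusted p = 0.0398) and of 1.12 ± 0.22 (adjusted p = 0.00266, edgeR). *Ifitm1* was at 98.3 and 19.7 CPM untreated, 779 and 972 with cytokines, and 1823 and 1228 with cytokines and NMMA. The untreated libraries differed widely between themselves, and the groups still did not overlap. Its change of 3.94 ± 0.76 with cytokines missed the threshold (adjusted p = 0.0528) but was called with the replicate as a block (4.10, adjusted p = 0.0302), by DESeq2 (adjusted p = 4.52e-05), without a filter on low counts (adjusted p = 0.00816) and without either untreated library (adjusted p = 1.89e-07 and 3.52e-05), while that with cytokines and NMMA, 4.73 ± 0.78, was called (adjusted p = 0.030, edgeR). Leaving out any of the 6 libraries other than the untreated ones took the latter call away, with adjusted p between 0.0707 and 0.115. Thus 2 of 3 members were called with cytokines and 3 of 3 with cytokines and NMMA, where 4.58% and 5.02% of 7505 genes were called higher. The call of *Ifitm2* with cytokines was lost without untreated replicate 1 or 2, NMMA replicate 1 or 2, or cytokine replicate 2. The log2 changes were then 0.48 to 0.82. It was also lost in DESeq2 (adjusted p = 0.0683) and with total UMIs in place of TMM factors (0.58, adjusted p = 0.116, edgeR).

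In mesenchymal cells, untreated *Ifitm3* was at 1910 and 1926 CPM, within the endothelial range. With cytokines it was at 7897 and 6708 CPM and with cytokines and NMMA at 9145 and 6584, a change of 1.93 ± 0.38 (adjusted p = 0.027) and 2.04 ± 0.38 (adjusted p = 0.0168, edgeR). The ranges with and without cytokines lay far apart, and those with and without NMMA overlapped. These sums hold 12 to 50 cells, and the first call was lost without any one of the untreated, cytokine or NMMA libraries (adjusted p = 0.0594 to 0.412) and the second without either untreated library (adjusted p = 0.317 and 0.353). *Ifitm2* was at 844 and 614 CPM untreated, 1332 and 1152 with cytokines, and 1576 and 918 with cytokines and NMMA (0.77 ± 0.38 and 0.77 ± 0.38, adjusted p = 0.598 and 0.670). *Ifitm1* was at 109 and 7.26 CPM untreated, 684 and 847 with cytokines, and 1657 and 400 with cytokines and NMMA (3.78 ± 1.15 and 4.19 ± 1.17, adjusted p = 0.313 and 0.269). For *Ifitm1* every library with cytokines was above both untreated libraries, which lay far apart. DESeq2 called *Ifitm1* in both comparisons (adjusted p = 0.000247 and 1.96e-05), and without untreated replicate 1 its changes were 6.63 and 7.04. With 32 and 3 UMIs untreated and 4 and 12 with NMMA, *Ifitm1* passed the filter on low counts only through the groups where it is high. *Ifitm1* is therefore not counted here. Of the other members, *Ifitm3* was called in each comparison and *Ifitm2* in neither (edgeR), where 1.69% and 1.92% of 5267 genes were called higher.

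In macrophages the replicates differed in level. *Ifitm3* was at 166 and 518 CPM untreated, 742 and 2353 with cytokines, and 938 and 2063 with cytokines and NMMA, where replicate 2 was higher in every condition. Within replicates the ratio to untreated was 4.47- and 4.55-fold with cytokines and 5.65- and 3.99-fold with cytokines and NMMA. The fitted changes of 2.16 ± 0.96 (adjusted p = 0.431) and 2.12 ± 0.96 (adjusted p = 0.378) were not called, but with the replicate as a block they were 2.15 (adjusted p = 2.47e-06) and 2.21 (adjusted p = 1.23e-06, edgeR). *Ifitm2* was at 124 and 177 CPM untreated, 93.8 and 616 with cytokines, and 253 and 388 with cytokines and NMMA (1.21 ± 0.94 and 1.08 ± 0.93, adjusted p = 0.674 and 0.678). With cytokines it was lower than untreated in replicate 1 and higher in replicate 2, and the fitted value was 2.02 (adjusted p = 0.00252) without cytokine replicate 1 and -0.70 (adjusted p = 0.556) without cytokine replicate 2. *Ifitm1* had at most 5 UMIs in any condition. None of the 2 tested members was called without the block, where 3.42% of 5728 genes were called higher with cytokines and 4.80% with cytokines and NMMA.

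With NMMA and no cytokines, none of the 3 genes was called changed in any class where it was tested, and 0% of genes were called in each of the 6 classes (edgeR), although 924 genes in β-cells and 77 to 352 in the others had an unadjusted p under 0.05, and DESeq2 called 13 in β-cells. With the replicate as a block, β-cells had 436 called genes, α-cells 5, δ-cells 11, macrophages 10, and the other classes 0. *Ifitm2* in α-cells was at 126 and 125 CPM with NMMA against 138 and 112 untreated (0.0012 ± 0.22, adjusted p = 1). *Ifitm3* in β-cells was at 0.614 and 1.36 CPM, above both untreated libraries, on 12 and 22 UMIs (0.95 ± 0.47, adjusted p = 0.722). Macrophages held *Ifitm3* at 247 and 507 CPM, endothelial cells at 1294 and 2660 and mesenchymal cells at 1746 and 1971, and each of these ranges overlapped the untreated one.

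The contrast by which the genes were chosen, cytokines against cytokines with NMMA, was as follows in endocrine cells. The fitted log2 difference of *Ifitm2* was -0.68 in β-cells (-0.73 and -0.62 within replicates), -2.45 in α-cells (-2.79 and -2.10) and -1.85 in δ-cells (-1.79 in replicate 2, the only one with both libraries). For all non-β endocrine cells together it was -2.27. *Ifitm3*, which the rule did not name for this difference but which comes from the same libraries, was at -0.13 in β-cells (-0.68 and 0.43), -1.08 in α-cells (-0.95 and -1.25; -1.53 to -0.67 when 1 library at a time was left out) and -2.04 in δ-cells. The δ-cell value is -0.97 when sums of 3 or more cells are admitted, which brings in the 9 cells of cytokine replicate 1 with 65 *Ifitm3* UMIs. In β-cells the replicates of *Ifitm3* thus lay on either side of 0, and in α-cells both were below it.

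The same contrast can be tested in the other 3 classes, which the rule did not use. In endothelial cells the log2 difference was -0.79 ± 0.65 for *Ifitm1*, -0.35 ± 0.21 for *Ifitm2* and -0.19 ± 0.29 for *Ifitm3* (each adjusted p = 1 after rounding, edgeR). In mesenchymal cells *Ifitm1* was at -0.41 ± 0.99, *Ifitm2* at -0.0043 ± 0.37 and *Ifitm3* at -0.11 ± 0.37 (each adjusted p = 1). Macrophages gave 0.13 ± 0.91 for *Ifitm2* and 0.041 ± 0.91 for *Ifitm3* (each adjusted p = 0.999, edgeR). The error there allows differences of the size seen in β-cells in either direction. Within replicates *Ifitm2* was at -0.70 and -0.052 in endothelial cells and at -0.24 and 0.33 in mesenchymal cells. The errors of *Ifitm2* in both classes also allow the fitted -0.68 of β-cells, so its absence is not shown. No member was called in any of the 3 classes. Of all genes, the calls were 0.0349% of 5728 in macrophages (2 genes), and 0% in endothelial and mesenchymal cells, where 366 and 175 genes had an unadjusted p under 0.05 and DESeq2 called 3 and 0. In macrophages DESeq2 called 9, and with the replicate as a block 39 genes were called in macrophages, 15 in endothelial and 0 in mesenchymal cells.

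Whether the response differed between cell types was tested as an interaction, each of the 3 non-endocrine classes against β-cells with the library as a block. The log2 response of *Ifitm3* was smaller than in β-cells in macrophages, with a difference of -2.63 ± 0.42 with cytokines (adjusted p = 2.16e-06) and of -2.69 ± 0.42 with cytokines and NMMA (adjusted p = 1.93e-06, edgeR). For endothelial cells the differences were -2.23 ± 0.30 (adjusted p = 1.95e-11) and -2.24 ± 0.30 (adjusted p = 3.74e-11). For mesenchymal cells they were -2.89 ± 0.53 (adjusted p = 1.91e-05) and -2.92 ± 0.53 (adjusted p = 2.29e-05), and both lost the call without untreated replicate 1 (adjusted p = 0.0527 and 0.0747). In these 6 tests *Ifitm3* went with 5.85% and 3.57% of genes called for macrophages, 6.29% and 2.96% for endothelial and 1.65% and 0.968% for mesenchymal cells. These differences concern the relative change: the untreated *Ifitm3* level itself was 1871 CPM in endothelial cells and 0.508 in β-cells. The differences of *Ifitm2* were not called, at 0.018 ± 1.26 and -0.43 ± 1.19 in macrophages, 0.12 ± 0.25 and -0.23 ± 0.25 in endothelial and 0.0044 ± 0.47 and -0.71 ± 0.43 in mesenchymal cells. The macrophage difference with cytokines has no settled direction: it was -1.68 without cytokine replicate 2 and 1.33 without cytokine replicate 1.

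Shares of cells with a UMI were counted after each cell was thinned to a common depth, and their exact 95% intervals cover counting error only. Shallower cells were left out, so that 1599 of 1664 and 516 of 603 untreated β-cells, 1109 of 1135 and 479 of 572 with cytokines, and 626 of 644 and 366 of 451 with cytokines and NMMA remained. At 9500 UMIs per β-cell, *Ifitm3* was found in 0.375 and 0.194% of untreated cells (unthinned 1.02 and 1.49%), in 4.87 (3.68 to 6.31) and 6.68% (4.61 to 9.30) with cytokines (unthinned 8.02 and 11.9%) and in 7.99 (5.99 to 10.4) and 7.38% (4.92 to 10.6) with cytokines and NMMA (unthinned 13.5 and 14.0%). *Pecam1*, an endothelial gene that β-cells should lack, was in 0.50 and 0.388%, 0.271 and 1.25%, and 3.35 and 4.10% of the same cells. The untreated *Ifitm3* shares are not above that of *Pecam1* and are not read as expression. *Pecam1* does not stand for the other endothelial markers in cytokine-treated β-cells: its mean was 0.445 CPM untreated and 3.41 with cytokines and NMMA, while that of *Esam* was 3.29 and 1.32. In α-cells at 9000 UMIs, *Ifitm3* was in 5.06 and 4.76% of 79 and 84 untreated cells, 38.1 and 29.3% of 42 and 58 cells with cytokines and 51.2 and 52.5% of 86 and 80 cells with cytokines and NMMA. *Pecam1* was in 0 and 0%, 0 and 0%, and 8.14 and 8.75% of the same cells. Unthinned, the *Ifitm3* shares were 8.25 and 8.51%, 37.5 and 31.5%, and 55.1 and 60.0%. In δ-cells at 7000 UMIs it was in 1.39 and 0% of 72 and 38 untreated cells (0 of 38 allows up to 9.25%), in 27.3% of 11 cells with cytokines (6.02 to 61.0) and in 47.3 and 57.6% of 55 and 33 cells with cytokines and NMMA (unthinned 1.18 and 2.27%, 41.7%, and 56.9 and 65.7%). *Pecam1* was in 1.39 and 0%, in 0% (0 of 11 allows up to 28.5%) and in 10.9 and 9.09% of the same δ-cells, so the untreated *Ifitm3* shares are not above it, and with cytokines alone the intervals overlap. *Ifitm2* was in 72.2 and 63.1% of untreated α-cells and in 94.2 and 91.2% with cytokines and NMMA. With cytokines alone its share was 45.2 and 51.7%, below untreated while its CPM was not, so no order is read from it.

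**Figure D4:**
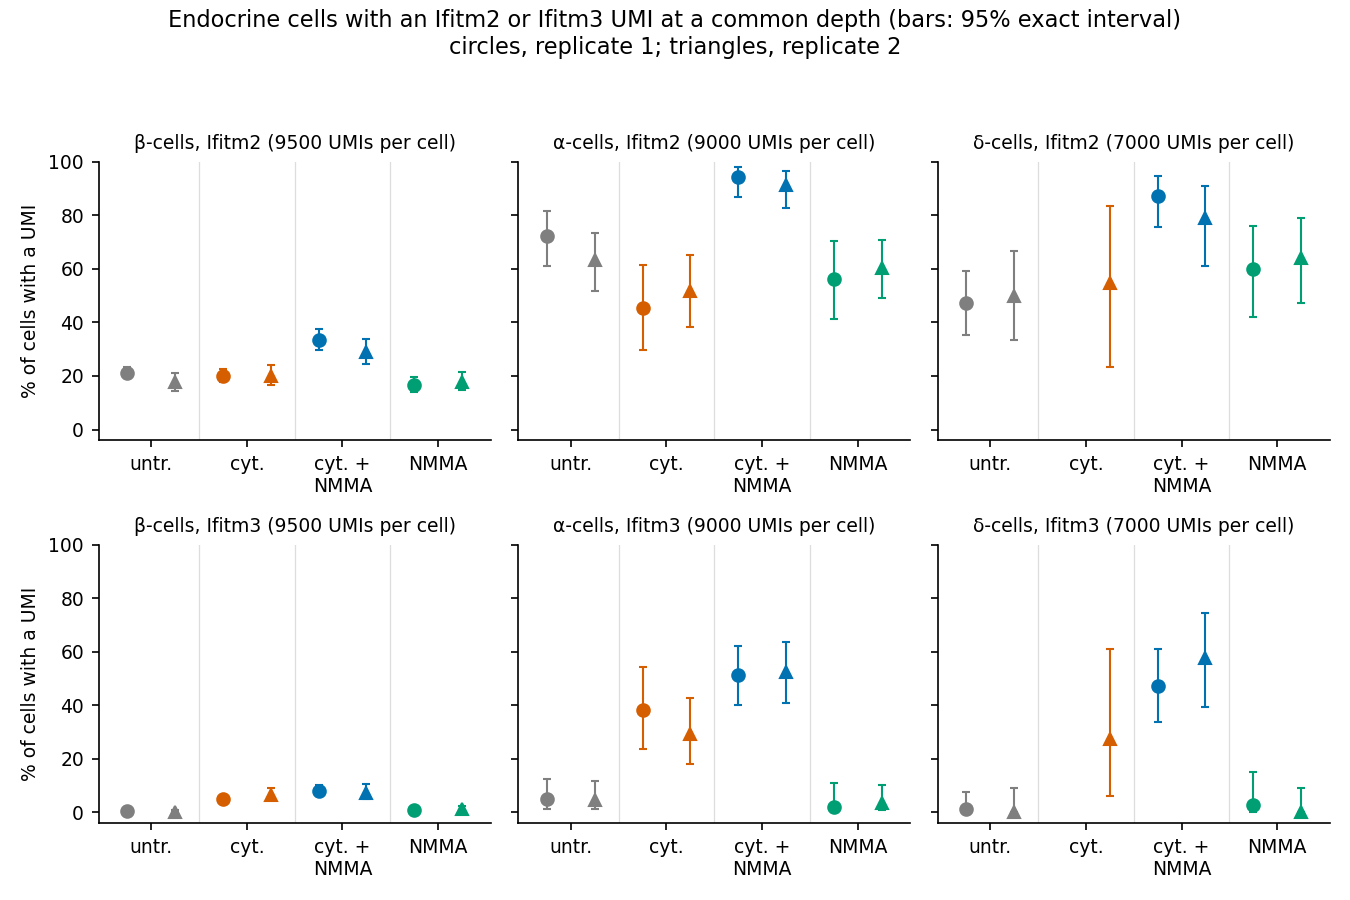
Percent of β-, α- and δ-cells with an *Ifitm2* (top) or *Ifitm3* (bottom) UMI in each library, at 9500, 9000 and 7000 UMIs per cell, with exact 95% intervals. *Ifitm3* reaches 51.2 and 52.5% of α-cells but 7.99 and 7.38% of β-cells with cytokines and NMMA.

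*Ifitm3* UMIs were concentrated in few β-cells. Without cytokines no β-cell held more than 1 *Ifitm3* UMI. With cytokines in replicate 1, 306 UMIs lay in 91 of 1135 cells, and the 18 cells with 5 or more held 63.7% of them, with up to 29 in a cell. In replicate 2, 23 of 572 cells held 75.7%. With cytokines and NMMA, 24 of 644 and 8 of 451 cells held 75.4 and 51.8%. In α-cells with cytokines and NMMA, cells with 5 or more were common, 38 of 98 and 31 of 90, and held 97.0 and 94.2% of the UMIs. *Ifitm2* in α-cells with a UMI had a median of 2 to 3 per cell untreated and of 16 and 12 with cytokines and NMMA.

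The β-cells with 5 or more *Ifitm3* UMIs differed from β-cells with none in ways that were measured but whose part in the result was not tested. Their median depth was 31259 against 24532 UMIs in cytokine replicate 1 and 52415 against 26302 in replicate 2. They held 9.72 against 2.53, and 208 against 29.4, *Gcg* and *Sst* UMIs per 10000, the hormone RNAs of α- and δ-cells, and with cytokines and NMMA 20.3 against 1.97 and 64.5 against 9.85. Doublet calls marked 0 of 18, 1 of 23, 2 of 24 and 1 of 8 of them. Among β-cells without *Ifitm3* they marked 8 of 1044, 5 of 504, 2 of 557 and 2 of 388. Per 10000 UMIs and in the same order, *Isg15* was at 5.67 against 0.601, 1.14 against 0.367, 1.86 against 0.999 and 0.721 against 0.775. *Ins1* and *Ins2* together were at 3929 against 3428, 3724 against 3712, 3240 against 3411 and 2790 against 3540. The 8 endothelial markers together had 0, 2, 3 and 2 UMIs in the β-cells with 5 or more *Ifitm3* UMIs. Summed over all β-cells, endothelial markers were at 6.17 and 5.26 CPM untreated (*Esam* the most abundant, none of the 8 at 0), 2.30 and 2.90 with cytokines and 6.19 and 6.63 with cytokines and NMMA (*Pecam1*). Mesenchymal markers were at most at 2.05 CPM in β-cells. The 10 macrophage markers summed to 70.8 and 45.6 CPM untreated, 140 and 78.2 with cytokines and 187 and 88.5 with cytokines and NMMA, but that sum is nearly all *C1qa* (means of 51.4, 84.8 and 112 CPM) and *Cd68* (3.89, 21.1 and 23.1). In the same order *C1qb* was at 0.218, 0.269 and 0.377 CPM on 4 to 8 UMIs a library, and *C1qc* (0.323, 0.221 and 0.133), *Lyz2* (0.657, 0.173 and 0.203) and *Tyrobp* (0.248, 0.110 and 0.189) were lower with cytokines than untreated. In α-cells, endothelial markers summed to 11.8 and 9.05 CPM untreated and 14.4 and 13.9 with cytokines and NMMA. *Cdh5*, *Kdr* and *Emcn* were at 0 in all 4 of these libraries, *Pecam1* went from 0 and 0 to 16 and 14 UMIs and *Esam* from 14 and 12 to 5 and 3, so the sum hides changes in both directions. Of the macrophage markers in α-cells, *Cd68* was at 1.94 CPM untreated, 32.4 with cytokines and 18.0 with cytokines and NMMA, *C1qa* was at 42.1, 25.1 and 34.5, *C1qb* at 0, 2.06 and 0.829, and *Tyrobp* at 0.266, 1.24 and 0.810, the last pair on at most 3 UMIs a library, while *Adgre1* was at 0 in all of these libraries. The 10 markers summed to 48.6 and 42.6 CPM untreated, 73.8 and 52.8 with cytokines and 51.4 and 59.0 with cytokines and NMMA. In δ-cells, *Cd68* was at 8.23 CPM untreated, 57.0 in the cytokine library (12 UMIs) and 28.2 with cytokines and NMMA, *C1qa* was at 89.4, 14.2 and 61.0, and *Adgre1* had 6 UMIs in the cytokine library (28.5 CPM) and none untreated. In δ-cells the same markers summed to 98.3 and 113 CPM untreated, 99.7 with cytokines (7 of 10 at 0) and 89.3 and 98.9 with cytokines and NMMA. Their part in the *Ifitm* values of α- and δ-cells was not tested.

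β-cells with cytokines were divided by a UMI of *Nos2* or of *Hspa1a*, a heat shock chaperone, after thinning to 10000 UMIs, to compare cells within the same library. With *Nos2* there were 518 and 201 cells with cytokines and 404 and 213 with cytokines and NMMA, without it 587, 274, 220 and 146, and 30, 97, 20 and 92 cells below the depth were left out. *Ifitm2* was at 48.5 CPM in cells with and 29.6 in cells without *Nos2* in cytokine replicate 1, and at 44.7 and 30.9 in replicate 2. With cytokines and NMMA it was at 76.9 and 47.9, and at 57.2 and 36.3. *Ifitm3* was at 15.1 and 4.02, 26.2 and 9.28, 18.5 and 9.94, and 17.5 and 5.08 CPM in the same order. Both genes were higher in cells with *Nos2* in 4 of 4 libraries, by 0.66 ± 0.10 on the log2 scale for *Ifitm2* (adjusted p = 7.21e-05) and by 1.5 ± 0.20 for *Ifitm3* (adjusted p = 7.99e-06, edgeR with the library as a block), where 7.13% of 9253 genes were called. The split by *Hspa1a* called neither, with 6.30% of 9209 genes called. *Ifitm2* changed by -0.13 ± 0.17 (adjusted p = 0.720), from 32.1 to 45.4 and 36.8 to 34.4 CPM with cytokines but from 70.9 to 46.3 and 52.6 to 34.3 with cytokines and NMMA. *Ifitm3* was at 0.46 ± 0.22 (adjusted p = 0.231) and was higher with *Hspa1a* in 3 of 4 libraries.

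**Figure D5:**
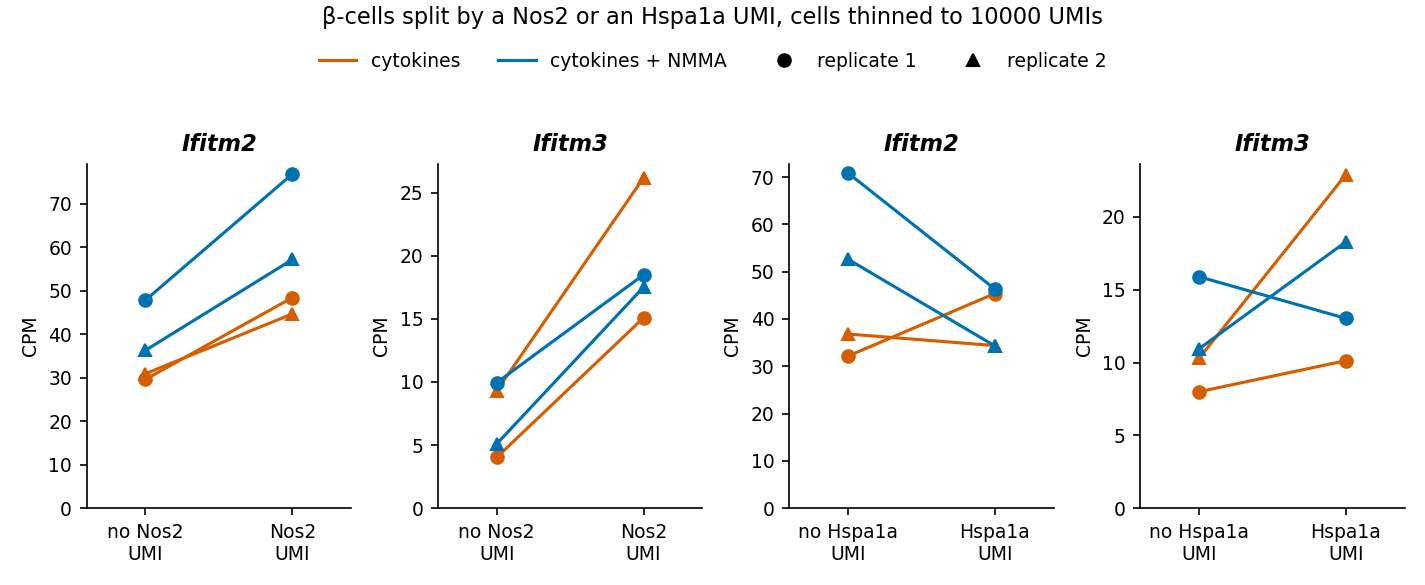
CPM of *Ifitm2* and *Ifitm3* in β-cells without and with a *Nos2* or *Hspa1a* UMI, where each line joins the sides of 1 library. All 4 lines rise for *Nos2*, for *Ifitm3* from 4.02 to 9.94 CPM up to 15.1 to 26.2, whereas those for *Hspa1a* cross.

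The other genes of the pathway were counted in fixed lists. All counts, medians and changes of δ-cells with cytokines below rest on the 1 library of 12 cells. Interferon receptors and signalling genes (16) were called higher in 12 of 16 with cytokines and 12 of 16 with NMMA added in β-cells, in 11 and 11 of 16 in α-cells, 7 and 11 of 15 in δ-cells, 6 and 7 of 16 in macrophages, 9 and 9 of 15 in endothelial and 4 and 6 of 14 in mesenchymal cells. The shares of all genes called higher were, in the same order, 23.7% and 12.9%, 13.4% and 6.13%, 4.63% and 6.42%, 3.42% and 4.80%, 4.58% and 5.02%, and 1.69% and 1.92%, and they stand beside the next lists too. The list's median log2 changes with cytokines lay between 1.13 in macrophages and 2.14 in endothelial cells, while the median over all genes tested lay between -0.035 and 0.011 in all 12 of these comparisons. Among the receptors, *Ifngr2*, the signalling chain of the IFN-γ receptor, rose in β-cells by 2.48 ± 0.25 (adjusted p = 9.87e-05) and in α-cells by 2.44 ± 0.35 (adjusted p = 8.99e-05, edgeR). Its log2 values of -0.21, -0.47 and -0.096 in macrophages, endothelial and mesenchymal cells were not called. In the 1 δ-cell library with cytokines it was at 2.84, which is a description. *Ifngr1*, the ligand-binding chain, rose in β-cells by 0.81 ± 0.19 (adjusted p = 0.00809, edgeR). It was not called in α-cells (0.28 ± 0.43), mesenchymal cells (0.71 ± 0.54), macrophages (-0.54 ± 0.40) or endothelial cells (-0.42 ± 0.30). In the 1 δ-cell library with cytokines *Ifngr1* was at -0.37. The difference between classes was not tested. *Irf8*, an interferon regulatory factor, rose by 6.84 ± 0.51 in β-cells (adjusted p = 4.30e-05, edgeR). In α-cells *Irf8* had no untreated UMI and 22 UMIs with cytokines, at least 13.5-fold more. *Socs1*, an inhibitor of JAK kinases, rose by 5.34 ± 0.22 in β-cells (adjusted p = 9.43e-07) and by 5.24 ± 0.37 in endothelial cells (adjusted p = 3.51e-08, edgeR).

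Antiviral interferon-stimulated genes (30 found) were called higher with cytokines in 28 of 29 in β-cells, 16 of 24 in α-cells, 15 of 27 in δ-cells, 6 of 28 in macrophages, 17 of 25 in endothelial and 5 of 17 in mesenchymal cells, and with NMMA added in 29, 21, 23, 14, 19 and 6 of these. The medians with cytokines were 2.69, 1.88, 2.57, 1.28, 2.99 and 2.52 on the log2 scale, and that of δ-cells is 2.40 with 2 genes that had no untreated UMI at their bound. *Ifit2*, which binds viral RNA and limits translation, rose in β-cells by 6.58 ± 0.35 (adjusted p = 6.10e-06) and in endothelial cells by 6.54 ± 0.54 (adjusted p = 1.90e-07). *Rsad2*, the antiviral enzyme viperin, rose by 3.56 ± 0.67 in β-cells (adjusted p = 0.0107) and by 3.82 ± 0.67 with NMMA added (adjusted p = 0.0164, edgeR). *Oas3*, an oligoadenylate synthetase, had 1 UMI in untreated β-cells, 86 with cytokines and 149 with cytokines and NMMA. *Oasl2*, of the oligoadenylate synthetase family, rose by 3.74 ± 0.25 in β-cells (adjusted p = 1.39e-05), 3.82 ± 0.49 in α-cells (adjusted p = 3.20e-05) and 1.95 ± 0.33 in macrophages (adjusted p = 0.00186, edgeR). The *Ifitm3* change of 4.88 in β-cells was above the list's median, and the *Ifitm2* change of 0.77 was below it. Guanylate binding proteins, which attack vacuoles of pathogens, were called higher with cytokines in 9 of 9 in β-cells, 9 of 9 in α-cells, 7 of 9 in δ-cells, 8 of 8 in macrophages, 7 of 9 in endothelial and 6 of 7 in mesenchymal cells. *Gbp4* rose in β-cells by 10.3 ± 0.35 (adjusted p = 4.89e-07), from 0.279 to 328 CPM, and *Gbp10* had 2 UMIs in untreated β-cells and 1854 with cytokines. *Gbp5* rose by 8.36 ± 0.23 in β-cells (adjusted p = 3.52e-07, edgeR) and was at least 98.1-fold higher in α-cells and 289-fold higher in endothelial cells, where the untreated libraries held no UMI.

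Genes for proteins that bind or modify IFITM proteins (10) moved in both directions: cytokines gave 4 higher and 4 lower calls among β-cells, where 22.5% of genes were called lower, and 2 higher and 1 lower with NMMA added, where 9.77% were lower. *Cd9*, a tetraspanin, rose by 3.32 ± 0.25 in β-cells (adjusted p = 2.13e-05) and 1.35 ± 0.21 in α-cells (adjusted p = 0.000174). *Nedd4*, a ubiquitin ligase of IFITM3, fell by 1.06 ± 0.12 on the log2 scale in β-cells (adjusted p = 0.000211), and *Vcp*, an ATPase that sorts ubiquitinated proteins, fell by 0.60 ± 0.15 (adjusted p = 0.00901, edgeR). In α-cells 2 were higher (with *Abhd16a* at 0.70) and 3 lower (*Vcp* at -0.71, *Cd81* at -0.65), where 9.02% of genes were called lower. With cytokines and NMMA, *Abhd16a* was called higher in δ-cells (1.22 ± 0.24, adjusted p = 0.00116). With cytokines, *Cd81* was called lower in macrophages (-1.24 ± 0.29, adjusted p = 0.0203), where 0.821% of genes were lower. None was called in endothelial or mesenchymal cells.

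Of 14 genes around the *Ifitm* locus on chromosome 7, cytokines gave 3 higher calls and 1 lower call among the 11 tested in β-cells, where 23.7% of all genes were higher and 22.5% lower, with a median of 0.16 on the log2 scale. *Pkp3* was at 0.72 ± 0.19 (adjusted p = 0.0136), *Ric8a* at 0.67 ± 0.20 (adjusted p = 0.0209) and *B4galnt4* at -1.22 ± 0.40 (adjusted p = 0.0311, edgeR). None of the neighbours was called in the other 5 classes, where 3 to 9 were tested. The family members *Ifitm5*, *Ifitm6*, *Ifitm7* and *Ifitm10* had 24, 1, 13 and 31 UMIs over all classes and were not tested. Heat shock and stress genes (15) were higher with cytokines in 12 of 15 in β-cells and 13 of 15 in α-cells (23.7% and 13.4% of all genes) and in 3 of 15 of either class with NMMA added (12.9% and 6.13%). *Hmox1*, heme oxygenase, rose by 3.10 ± 0.64 in β-cells (adjusted p = 0.0137) and by 3.88 ± 0.41 in α-cells (adjusted p = 8.85e-05, edgeR). *Atf3*, a stress-induced transcription factor, rose in β-cells by 3.74 ± 0.44 (adjusted p = 0.000488), and *Dnajb1*, a co-chaperone, by 2.18 ± 0.47 (adjusted p = 0.0118), where with NMMA added it was at 1.19 ± 0.46 (adjusted p = 0.124). With cytokines, in δ-cells 1 of 15 was higher and 1 (*Hspa1b*) lower, where 1.96% of genes were lower, and 0 of 14 in macrophages, 1 of 15 in endothelial and 0 of 15 in mesenchymal cells were called. With NMMA added the higher calls were 1, 0, 3 and 0 in the same order of classes, in endothelial cells *Atf3* (2.29 ± 0.40, adjusted p = 0.00123), *Ddit3* (1.36 ± 0.30, adjusted p = 0.00843) and *Hmox1* (1.03 ± 0.29, adjusted p = 0.0427, edgeR).

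Genes whose log2 CPM followed each member most closely over the 47 sums of classes and libraries were ranked by Pearson's r among 8721 genes with a mean of at least 10 CPM. The sums share libraries and classes and are not independent, so r is a description. *Ifitm3* was closest to *Rras* (0.926), *Anxa2* (0.922), *Tnfaip2* (0.922), *Tspan4* (0.921) and *Tgfb1* (0.920). *Ifitm2* was closest to *Plod3* (0.894), *Ifitm3* (0.893), *Rhoc* (0.883), *Ier3* (0.874) and *Rras* (0.872), and *Ifitm1* to *Art3* (0.929), *Gja4* (0.926), *Ier3* (0.905), *Cdc42ep2* (0.894) and *Sod3* (0.886). Among the members, *Ifitm2* and *Ifitm3* had 0.893, *Ifitm1* and *Ifitm2* 0.851, and *Ifitm1* and *Ifitm3* 0.80.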

How the data were processed

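Unnormalised UMI counts, 1 sparse table of genes by cell barcodes for each of 8 libraries, are what the authors deposited. Per the file headers these were made with Cell Ranger 3.0.0 (replicate 1, 31053 genes) and 6.0.0 (replicate 2, 32285 genes), and the submitters' processing notes name Cell Ranger and the build mm10. Counts of the 30406 gene IDs in both lists were used. The sample labels name the 10x v2 kit and the paper v3. Members, gene lists and comparisons were chosen with earlier results of these data known.

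Barcodes with at least 200 genes, at most 5500 (replicate 1) or 6500 (replicate 2) genes and at most 10% mitochondrial UMIs were kept, scaled to 10000, and clustered (2000 variable genes, 30 principal components, 20 neighbours, resolution 1; scanpy 1.11.5, leidenalg 0.10.2) into 24 clusters named by fixed markers. Doublets were scored (128 barcodes, 1.18%) and removed only as an alternative. The depth of the libraries is 26549922 to 50731370 UMIs. UMIs were summed per class and library (at least 10 cells) and tested with edgeR 4.0.16 in R 4.3.3 (filterByExpr, TMM, robust quasi-likelihood F test, all conditions of a class in 1 fit; SE is the log2 change over the square root of F). DESeq2 1.42.0, no low-count filter, total UMIs, 1000 or more genes per barcode, other clustering, other thinning and leaving out each library were alternatives. For a group without UMIs, 3 counts over the group were the floor, and intervals are exact at 95%. Procedures were tested on simulated data.

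Libraries of a replicate come from 1 islet pool, as the paper's methods state, so the numbers pair the samples. Deviations from condition means correlated between same-numbered libraries with r of 0.606 to 0.700 in β-cells and 0.227 to 0.504 in the other classes checked. The replicates also differ in Cell Ranger version, so r cannot tell a shared pool from shared processing. The main fit has no replicate block, and blocked values are given where they change a call. Named genes are the 3 members, the 5 closest patterns per member, and some of those given per list by the rule of the 2 largest called increases and decreases and members the paper names. Cell-cycle regression of the paper was not repeated. Values of some cell type markers are not reported here.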

Additional observations from a re-analysis of the deposited data

Results flagged for a closer look

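The *Ifitm3* response to cytokines differed between β-cells and each of the 3 non-endocrine classes, by the test of the difference itself (edgeR interaction with the library as a block). The log2 response was lower than in β-cells by a difference of -2.63 in macrophages with cytokines and -2.69 with cytokines and NMMA, of -2.23 and -2.24 in endothelial cells, and of -2.89 and -2.92 in mesenchymal cells. Both mesenchymal differences lost the call without untreated replicate 1, where they were -2.83 and -2.86. The untreated β-cell sums behind these differences hold 17 and 9 *Ifitm3* UMIs. With cytokines, 18 of 1135 and 23 of 572 β-cells held 63.7 and 75.7% of the *Ifitm3* UMIs, and these cells held more *Gcg* and *Sst* UMIs per 10000 than β-cells without *Ifitm3* (9.72 against 2.53, and 208 against 29.4), whose part in the difference was not tested.

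Barcodes of clusters left unnamed are in none of the 6 classes. Clusters of 745 and 675 barcodes closest to β-cell markers, and of 93 closest to endothelial markers, were left unnamed for few UMIs. A cluster of 109 was left unnamed because markers of another type led. The unnamed barcodes thus mix cell types, and their values are not read as a response of 1 type. In cytokine replicate 2 their *Ifitm3* stood at 55.2 CPM without TMM factors (17 UMIs of 308182, in 267 barcodes), above the 12.9 CPM of untreated replicate 2 (8 of 618216, in 271 barcodes). With NMMA and no cytokines, the same kind of barcodes in replicate 2 stood higher still, at 80.5 CPM (43 of 534100 UMIs, in 363 barcodes).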

How the results depend on the processing

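Of 582 recomputed values of single genes, 525 kept their direction and their side of the threshold, 14 gained and 24 lost a call, and 19 turned direction. Of 147 values of differences between classes or between split cells, 135 kept both, 1 gained and 2 lost a call, and 9 turned direction. Of 141 shares of cells, 67 left their interval when cells were thinned to 1000 UMIs. Also moved were 10 of 92 values of the contrast used for selection, 43 of 189 counts of genes called in a class and 19 of 332 counts of the 3 genes called. Among genes with a mean CPM of 50 or more, the nearest patterns of *Ifitm3* were the same genes. Those of *Ifitm1* no longer held *Art3*, *Cdc42ep2* and *Sod3*, and those of *Ifitm2* no longer held *Plod3*. With DESeq2, the number of the 3 genes called in mesenchymal cells was 2 in place of 1 with cytokines and 2 in place of 1 with cytokines and NMMA. The gene gained was *Ifitm1*, which passed the filter on low counts there only through the groups where it is high. Total UMIs in place of TMM factors gave 1 in place of 2 in endothelial cells with cytokines, and turned *Ifitm2* in α-cells with cytokines to -0.20. The replicate block gave 1 in place of 0 in macrophages in both comparisons and changed calls of the 3 genes in no other class except *Ifitm1* in endothelial cells with cytokines. Leaving out 1 library in turn gave 1 to 2 called genes in β-cells with cytokines, 0 to 1 in macrophages in both comparisons, 1 to 2 in endothelial cells with cytokines and 0 to 1 in mesenchymal cells in both. The cause of these changes was not tested, but a group left with 1 library takes its spread from the other groups.

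The other turns of direction were these. For cytokines against cytokines with NMMA, the replicate block gave -0.091 for *Ifitm2* and -0.061 for *Ifitm3* in macrophages, and 0.056 for *Ifitm1* and 0.033 for *Ifitm2* in mesenchymal cells, where *Ifitm2* was also at 0.0052 (DESeq2), 0.0033 (no low-count filter), 0.0090 (doublets removed) and 0.0021 (1000 or more genes per barcode). Leaving out 1 library, the same contrast ran from -1.79 to 0.96 (*Ifitm2*) and -1.03 to 0.74 (*Ifitm3*) in macrophages, and from -1.08 to 0.91 (*Ifitm1*), -0.32 to 0.40 (*Ifitm2*) and -0.30 to 0.11 (*Ifitm3*) in mesenchymal cells. *Ifitm2* in macrophages with cytokines ran from -0.70 to 2.02. Its difference from β-cells ran from -1.68 (adjusted p = 0.00458, without cytokine replicate 2) to 1.33 (adjusted p = 0.0293, without cytokine replicate 1) and with cytokines and NMMA from -0.97 to 0.15, in endothelial cells from -0.28 to 0.49 and in mesenchymal cells from -0.063 to 0.12, both with cytokines. For *Ifitm3* in mesenchymal cells that difference ran from -3.28 to -2.50 with cytokines and from -2.97 to -2.86 with cytokines and NMMA. The split by *Hspa1a* for *Ifitm2* ran from -0.44 to 0.059.

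Counts of genes called over a whole class, in either direction, moved by over 1.5 times as follows. The replicate block raised them with cytokines and NMMA from 2898 to 5217 (β), 817 to 1348 (α), 881 to 1548 (δ), 344 to 627 (macrophages), 498 to 760 (endothelial) and 104 to 161 (mesenchymal), and with cytokines from 243 to 455 (macrophages), 475 to 783 (endothelial) and 95 to 173 (mesenchymal). DESeq2 lowered them from 2194 to 1262 (α, cytokines), 625 to 259 (δ, cytokines), 817 to 509 (α), 881 to 335 (δ) and 344 to 220 (macrophages, all with NMMA added). Leaving out 1 library lowered them to as few as 3624 of 5905 and 1290 of 2898 in β-cells (without and with NMMA), 1257 and 473 in α-cells, 148 and 196 in macrophages, 291 and 319 in endothelial and 46 and 69 in mesenchymal cells, and to 472 in δ-cells with NMMA added. Untreated replicate 1 moved them in all 6 classes. Total UMIs gave 3303 in α-cells with cytokines. Without a low-count filter there were 460 and 588 in macrophages and 276 and 265 in mesenchymal cells. The sums of *Ifitm1* in endocrine cells and macrophages and of *Ifitm3* in untreated β- and δ-cells hold few UMIs, so small differences there were not detectable.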

Other observations

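Classes left out of the comparisons also held *Ifitm3*. Acinar-like cells of cytokine replicate 1 were at 899.9 CPM without TMM factors (128 of 142244 UMIs, 21 cells), against 41.4 in untreated replicate 1 (30 cells) and 39.2 with NMMA alone (69 cells). This class was not stable: clustered without the *Ifitm* genes it fell from 153 to 57 cells in all libraries. It then held 18 cells in cytokine, 10 in untreated and 17 in NMMA replicate 1. In unnamed barcodes *Ifitm3* was at 181 CPM in cytokine replicate 1 and at 326 and 229 with cytokines and NMMA, against 11.6 and 12.9 untreated and 13.1 and 80.5 with NMMA alone. The 9 δ-cells of cytokine replicate 1, too few for a sum, held 65 *Ifitm3* UMIs in 4 cells and 25 *Ifitm2* UMIs in 6 cells.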
